A study of Mus musculus with 6 samples.

Results

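Tet1 siRNA was compared with no transfection in partially reprogrammed mouse cells. The comparison was set by treatment label, and it holds 4 of the 6 sequenced samples: the 2 libraries transfected with Tet1 siRNA (siTet1) and the 2 untransfected libraries, paired by cell line. The other 2 samples, given a control siRNA, enter only to say how much of each gene's change was already there with an siRNA that was not aimed at Tet1. The cell lines were pre2-2 and pre3, and each of the 6 combinations of line and treatment gave 1 library. Both lines derive from embryonic fibroblasts (MEFs) of OG2 transgenic mice whose strain the labels give as 129SVJ (1/2), C57B6 (3/8) and CBA (1/8), and were at passage 10. All 6 samples, the untransfected ones included, grew in mouse ES cell medium that contained LIF, with vitamin C at 50 µg/ml. The series text has vitamin C added 16 h after transfection and RNA taken 32 h later, while the sample labels give 36 h of vitamin C and 48 h from transfection to RNA. The sample labels call the cells MEFs, the series text calls them pre-iPSCs, and 1 label field names the target as Tet where the titles name Tet1. Nothing in the labels says that libraries came from separate cultures, whether a line is a clone, or whether untransfected cells received transfection reagent. The p-values therefore measure only the spread between these samples.

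Tet1 is a dioxygenase that oxidises 5-methylcytosine in DNA, a step toward removing the methyl mark, and vitamin C is a cofactor that supports this family of enzymes. Pre-iPSCs are cells that have started reprogramming from fibroblasts to pluripotency without completing it, so they carry reprogramming factors and epithelial traits and may keep part of the fibroblast program. A short double-stranded RNA brought into a cell can be sensed as viral RNA and start an interferon response, whichever gene it targets, which is why an untransfected control and a control siRNA answer different questions.

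Levels are given as CPM (counts scaled to library size with TMM factors) unless TPM (which also corrects for gene length) is named. Paired values give pre2-2 before pre3. Changes are log2 fold changes from edgeR's quasi-likelihood fit with the cell line as a term, each with its standard error (SE), and calls are those with an adjusted p below 0.05 among the 11048 genes tested. Where a gene was called, the percentage already present with control siRNA is its log2 change with control siRNA divided by its log2 change with siTet1, both against untransfected cells. A percentage over 100 means that control siRNA moved the gene further than siTet1 did.

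The libraries held 1868640 to 2582803 expected counts, so that 3 counts equal 1.16 to 1.61 CPM, and 13506 to 14128 genes had a count. Of 12 markers of pluripotent cells, 6 were at 1 TPM or more in every library, led by Pou5f1, while Dppa3 had no count in any and Nanog reached at most 5.60 TPM. Their summed level was 2874 and 10664 TPM in untransfected cells and 3307 and 10856 TPM with siTet1. Of 12 fibroblast markers, 10 were at 1 TPM or more in every library, and their sum was 689.8 and 326 TPM untransfected, 1745 and 432 TPM with control siRNA and 1434 and 476 TPM with siTet1. RNA of some markers of both cell types was thus present. Pou5f1 made up most of the pluripotent sum (1826 and 9358 TPM untransfected), and Esrrb, Fut4 and Lin28a were below 1 TPM in every library. The pre2-2 untransfected library held less RNA of these fibroblast markers than the transfected libraries of its line, and in bulk RNA fewer cells of a type cannot be told from less RNA per cell. That library also stood apart over all genes. In pre2-2, 794 genes were at least 2-fold higher and 173 at least 2-fold lower with siTet1 than in untransfected cells, against 388 and 198 in pre3. Control siRNA against the same pre2-2 library gave 584 and 108, and against the pre3 library 233 and 209. Counts are therefore given below with and without the pre2-2 untransfected library for the whole comparison and for some lists. Where a list has no second count, its calls may still rest on that library.

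Tet1, the targeted gene, was lower in both siTet1 libraries. It stood at 250.02 and 205 CPM in untransfected cells, 154 and 159 CPM with siTet1 and 246 and 251 CPM with control siRNA. Both siTet1 libraries lay below both untransfected libraries, and Tet1 fell by 0.54 on the log2 scale (SE 0.13, adjusted p = 0.00951), a fitted ratio of 0.687 to the untransfected level. With control siRNA Tet1 differed by 0.13 from untransfected cells and was not called (adjusted p = 0.871). The fall was -0.70 in pre2-2 and -0.37 in pre3. The call ended without the untransfected pre2-2 library (-0.37, adjusted p = 0.115) or the pre2-2 siTet1 library (-0.45, adjusted p = 0.404). Of the other family members, Tet2 stood at 89.7 and 111 CPM untransfected and 67.9 and 88.01 CPM with siTet1 (-0.37, adjusted p = 0.153), and Tet3 at 73.8 and 86.2 CPM untransfected and 81.02 and 89.9 CPM with siTet1 (0.10, adjusted p = 0.782). Neither was called, and the Tet3 libraries of the groups overlapped.

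**Figure D1:**
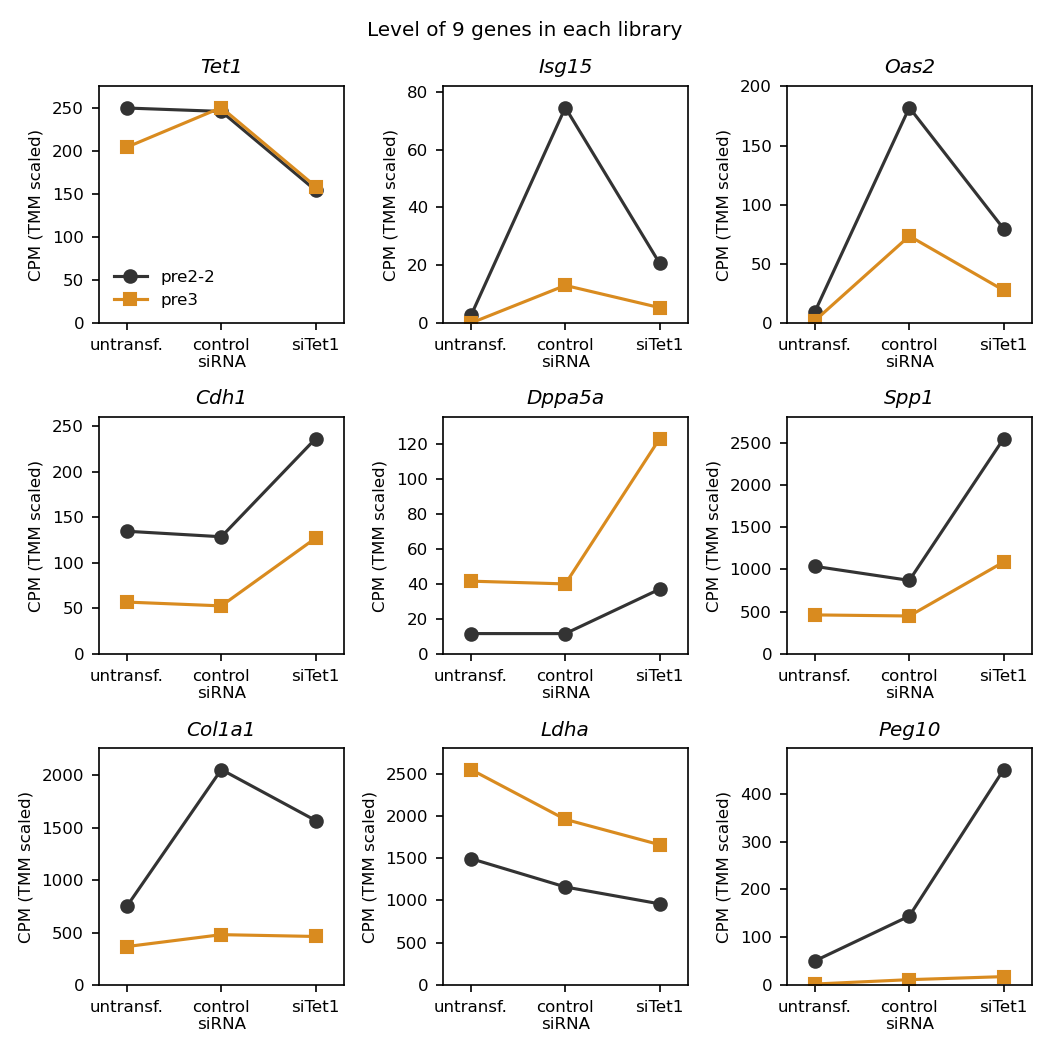
Level in CPM (TMM scaled, linear axis from 0) of 9 genes in each of the 6 libraries, with circles for pre2-2, squares for pre3 and lines joining the libraries of a cell line. Tet1 drops with siTet1 in both lines, Isg15 and Oas2 peak with control siRNA, Cdh1, Dppa5a and Spp1 are high with siTet1 and not with control siRNA, and Ldha steps down in the order untransfected, control siRNA, siTet1.

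Across the transcriptome, edgeR called 724 of 11048 genes between siTet1 and untransfected cells (6.55%), 544 higher (4.92%) and 180 lower (1.63%). These shares are the background for the edgeR counts of each list below. At least 2-fold changes made up 253 of the higher and 25 of the lower calls. Without adjustment 2157 genes had a p under 0.05. In 720 of the 724 the lines moved the same way, which the model itself favours because it holds 1 treatment effect for both lines. The changes were larger in pre2-2, with a median log2 difference of 1.14 for the genes called higher there and 0.63 in pre3, and of -0.67 and -0.45 for those called lower. Groups did not overlap for 298 of the genes called higher and 124 of those called lower. Over all genes tested, 15.1% had both siTet1 libraries above and 14.7% both below the untransfected ones.

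**Figure D2:**
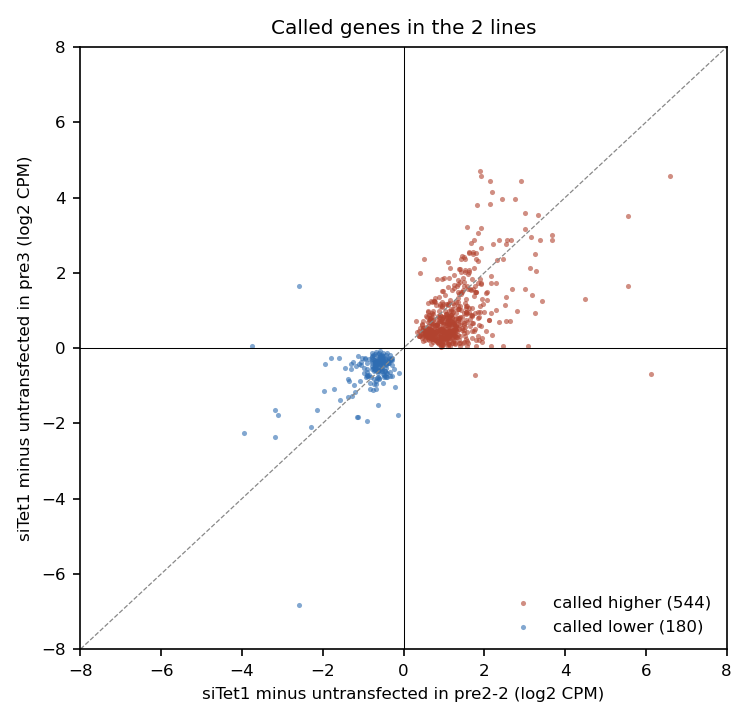
The 724 called genes, each a point, with the log2 CPM difference of siTet1 minus untransfected in pre2-2 on the horizontal axis and in pre3 on the vertical axis; the dashed line marks equal differences. Most genes called higher (544) lie right of the dashed line, where the difference is larger in pre2-2, and 4 genes lie in a quadrant where the lines moved opposite ways.

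For much of this list the change was already there with control siRNA. Control siRNA against untransfected cells had 153 genes higher (1.38%) and 11 lower (0.0996%), and siTet1 against control siRNA 127 higher (1.15%) and 48 lower (0.434%). Of the 544 genes called higher, 172 (31.6%) had under 33.3% of their change with control siRNA, 187 (34.4%) had 33.3 to 66.7%, and 185 (34.0%) had at least 66.7%. Among the last, 69 changed more with control siRNA than with siTet1. Of the 180 genes called lower, 73 (40.6%) had under 33.3%, 86 (47.8%) were between, and 21 (11.7%) had at least 66.7%. The classes describe size only, since both changes are measured against the same untransfected libraries, and computed from the pre3 libraries alone 375 of the 724 genes had under 33.3%.

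The number of calls rested strongly on single libraries. Without the pre2-2 untransfected library 176 genes were higher (1.54% of those tested) and 118 lower (1.03%), and 210 of these 294 were among the 724. Without the pre2-2 siTet1 library 132 were higher (1.16%) and 40 lower (0.353%), and without the pre3 siTet1 library 502 (4.38%) and 118 (1.03%). Without the pre3 untransfected library, which leaves pre2-2 to set the contrast, there were 1114 higher (9.73%) and 786 lower (6.86%). Leaving out a control siRNA library gave 511 (4.48%) and 144 (1.26%) for pre2-2 and 498 (4.33%) and 142 (1.24%) for pre3. A core of 76 genes was called with each of the 6 libraries left out in turn, 63 higher and 13 lower. Genes of this core are named as such below, and for the other genes the libraries on which their call rested are given. The remaining library of a group from which 1 is left out is assumed to vary like the others.

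**Figure D3:**
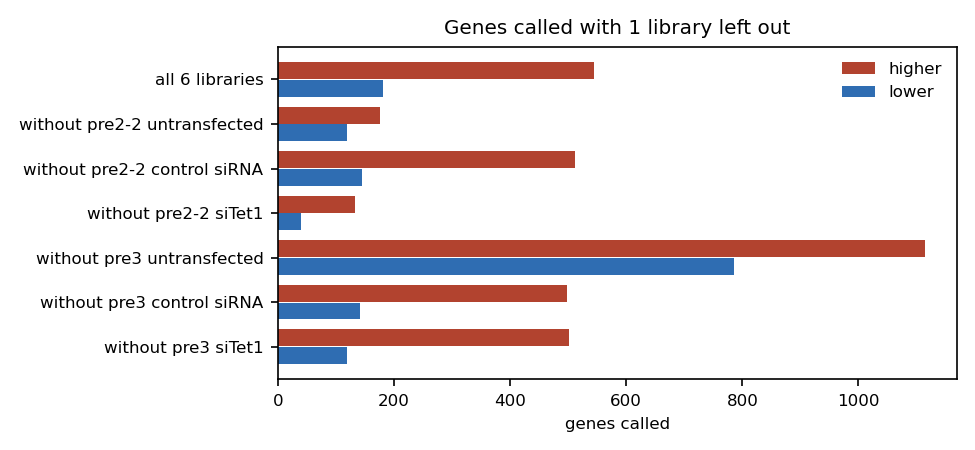
Number of genes called higher and lower between siTet1 and untransfected cells (adjusted p under 0.05, bars from 0) with all 6 libraries and with each library left out. The count falls to 294 without pre2-2 untransfected and to 172 without pre2-2 siTet1, and rises to 1900 without pre3 untransfected.

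Genes of the interferon response that rose with siTet1 stood higher still with control siRNA. In 7 lists of this response, from sensors to antigen presentation, 63 of 87 genes could be tested, and 11 rose with siTet1 (17.5%) and 4 fell (6.35%), against 4.92 and 1.63% of all genes. All 11 that rose had at least 66.7% of their change with control siRNA. These 11 were also called higher between control siRNA and untransfected cells, where 1.38% of all genes were. Both comparisons use the same untransfected libraries, so this overlap was not tested and is no separate support. The median log2 change of the 63 genes was 0.21 with siTet1 (0.01 over all genes) and 0.90 with control siRNA, and -0.73 between siTet1 and control siRNA. Of the 63, DESeq2 called 5 higher and none lower between siTet1 and untransfected cells, and limma 12 higher and 4 lower. Between the siRNAs Irf7, Usp18, Oas2, Oasl2, Isg15 and Ifit1 were called lower with siTet1. Without the pre2-2 untransfected library 3 were higher and none lower.

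Promoters of interferon-induced genes often carry a short element that interferon regulatory factors bind. Of these promoters 3 are printed, of Isg15 and Ifit1, which rose, and of Gbp2, which fell. They run from 250 bases before to 50 bases after the gene start in RefSeq's GRCm38.p6 table, a later build than the mm9 of the count files, and are read 5′ to 3′ on the strand of the gene. Capitals mark GAAA, then any 2 bases, then GAAA, or the reverse complement, a core of the interferon-stimulated response element, searched on both strands with overlapping matches allowed. Isg15 (chr4:156200769-156201068, minus strand) holds 3 overlapping matches, Ifit1 (chr19:34640639-34640938, plus strand) 2 and Gbp2 (chr3:142620413-142620712, plus strand) 1.
Isg15: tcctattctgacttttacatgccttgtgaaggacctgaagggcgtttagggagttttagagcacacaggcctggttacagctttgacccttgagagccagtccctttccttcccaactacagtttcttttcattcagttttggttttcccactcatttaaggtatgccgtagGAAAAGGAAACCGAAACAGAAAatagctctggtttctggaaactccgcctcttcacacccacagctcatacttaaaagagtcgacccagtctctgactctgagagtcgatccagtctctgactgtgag
Ifit1: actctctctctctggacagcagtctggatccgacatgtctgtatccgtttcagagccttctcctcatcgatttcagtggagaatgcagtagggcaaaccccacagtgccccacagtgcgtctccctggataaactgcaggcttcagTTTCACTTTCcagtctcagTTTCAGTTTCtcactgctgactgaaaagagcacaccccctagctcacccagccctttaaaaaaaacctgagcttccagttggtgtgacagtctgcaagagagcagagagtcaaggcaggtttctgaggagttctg
Gbp2: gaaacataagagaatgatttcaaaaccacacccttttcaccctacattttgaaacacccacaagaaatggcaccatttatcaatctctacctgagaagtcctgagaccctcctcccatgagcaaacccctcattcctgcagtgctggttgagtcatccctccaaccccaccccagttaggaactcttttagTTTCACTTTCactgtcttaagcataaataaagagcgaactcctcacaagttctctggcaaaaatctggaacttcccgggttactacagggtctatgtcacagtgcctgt
Of the 15 called genes of these lists, 11 had a promoter in the table and 7 of these held the letters. Among all 32851 promoters of the same 300 bases, 1131 did (3.44%). The lists were drawn up as interferon response genes, so this difference can follow from that choice and says nothing of the calls. Uncalled members were not counted apart, and the 7 include Gbp2, H2-T23 and Tgtp1, which fell. Irf7, Oasl2, Ifi44 and Tapbp had none in this window. A match is a run of letters and no measurement of binding.

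None of the 7 tested sensors that start the response was called by edgeR or DESeq2, while limma called 1 higher and 2 had an unadjusted edgeR p under 0.05. Without pre3 untransfected 3 were called higher by edgeR and without pre3 control siRNA 1. Ddx58, which encodes the RNA sensor RIG-I, stood at 68.00 and 57.96 CPM untransfected, 80.99 and 63.8 CPM with siTet1 and 153 and 87.95 CPM with control siRNA. Its difference with siTet1 was 0.20, adjusted p = 0.557, while with control siRNA it rose by 0.92 (adjusted p = 0.00101). The median change of the sensors was 0.20 with siTet1 against 0.92 with control siRNA. Of 12 signalling genes, 2 rose (16.7%, against 4.92% of all genes). Irf7, the transcription factor that amplifies interferon production, stood at 2.33 and 0 CPM untransfected, 16.9 and 3.72 CPM with siTet1 and 72.5 and 11.2 CPM with control siRNA. Every transfected library lay above both untransfected ones (log2 change 3.06, SE 0.53, adjusted p = 0.000615), and siTet1 lay below control siRNA in each line. Usp18, the protease that removes Isg15 from proteins and restrains the response, had 2 counts in the untransfected libraries together and was higher by 13.7-fold (95% exact counting interval 3.399 to 119.5) with siTet1.

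Among the effectors, Isg15, the ubiquitin-like modifier, stood at 2.603 and 0 CPM untransfected, 20.6 and 5.32 CPM with siTet1 and 74.5 and 13.01 CPM with control siRNA (log2 change 3.17, SE 0.49, adjusted p = 0.000162; 154% present with control siRNA). Oas2, an oligoadenylate synthetase that turns on RNA decay, stood at 9.71 and 2.05 CPM untransfected, 79.6 and 27.7 CPM with siTet1 and 182 and 73.6 CPM with control siRNA (log2 change 3.15, SE 0.26, adjusted p = 1.34e-08; 141%). Both siTet1 libraries lay above both untransfected ones and below the control siRNA library of their line, and both genes belong to the core. Oasl2, of the same family, rose by 2.70 (adjusted p = 0.000849). Rtp4, an interferon-induced chaperone, had no count in untransfected cells and 24 with siTet1, at least 9.13-fold higher with the untransfected group set at 3 counts. Ifit1, which binds viral RNA ends, had 3 counts in untransfected cells and was higher by 7.61-fold (95% exact counting interval 2.26 to 39.97). It shares 7.13% of its 50-base words with Ifit1bl2, so its counts are partly uncertain. Ifi44 was called higher, yet it rose in pre2-2 (0 and 1.03 CPM untransfected, 13.2 and 0.532 CPM with siTet1) and not in pre3. Ifitm3, a membrane protein that blocks virus entry, stood at 201 and 336 CPM untransfected, 445 and 429.9 CPM with siTet1 and 501 and 449.7 CPM with control siRNA (log2 change 0.73, SE 0.15, adjusted p = 0.00244). It shares 5.56% of its words with Ifitm2. Lgals3bp (3.09, core) and Ifi27l1 (3.13, core), which were in no list but among the most raised genes, showed the same order of treatments. The calls of Irf7, Oasl2, Rtp4, Ifit1, Usp18, Ifi44 and Ifitm3 ended without the pre2-2 untransfected library (5.56, 5.37, 4.56, 2.73, 4.33, -0.59, of opposite sign, and 0.33). Those of Usp18 (4.17), Ifi44 (2.59) and Ifitm3 (0.57) also ended without pre2-2 siTet1, and that of Ifit1 without pre2-2 control siRNA (2.89).

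Immunity GTPases went the other way. These proteins attack the vacuoles of intracellular microbes and are induced mainly by interferon gamma. Of 9 tested none rose and 3 fell (33.3%, against 1.63% of all genes), with a median of -1.14 against 0.58 with control siRNA. Gbp2 stood at 27.4 and 1.54 CPM untransfected, 24.3 and 3.198 CPM with control siRNA and 6.95 and 1.06 CPM with siTet1 (log2 change -1.78, SE 0.43, adjusted p = 0.0114). Each siTet1 library lay below both other libraries of its line, but the pre3 levels amount to 3 counts or fewer, untransfected and with siTet1. Tgtp1 fell in pre2-2 and not in pre3, with 36.9 and 0 CPM untransfected, 50.7 and 2.67 CPM with control siRNA and 5.97 and 0.532 CPM with siTet1 (log2 change -2.43, SE 0.44, adjusted p = 0.00114), and shares 89.4% of its words with Tgtp2. Iigp1, with 1 count with siTet1 against 24 untransfected, was lower by 21.04-fold (95% exact counting interval 3.43 to 865). The other 6 GTPases stood between -1.21 and 0.20 and were not called. All 3 calls ended without pre2-2 untransfected, where Gbp2 was at -0.67, Iigp1 at -1.18 and Tgtp1 at 2.55, the last with the opposite sign. They also ended without pre2-2 siTet1 (-1.11, -2.12 and -0.88), and that of Iigp1 without pre2-2 control siRNA (-4.02). With siTet1 the median over the 9 genes was -1.60 in pre2-2 and 1.11 in pre3. None of the 9 was called by DESeq2, and limma called 3 lower.

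Antigen presentation genes were mixed, with 2 of 12 higher (16.7%) and 1 lower (8.33%), against 4.92 and 1.63% of all genes. B2m, the light chain of class I molecules, stood at 66.05 and 56.4 CPM untransfected, 162 and 69.1 CPM with siTet1 and 251 and 76.8 CPM with control siRNA (log2 change 0.86, SE 0.21, adjusted p = 0.0126), and the peptide-loading gene Tapbp at 22.9 and 29.7 CPM untransfected, 79.2 and 34.6 CPM with siTet1 and 98.5 and 35.5 CPM with control siRNA (log2 change 1.09, SE 0.27, adjusted p = 0.0132). Both changes were mostly in pre2-2, and without its untransfected library they stood at 0.13 and 0.12 with no call (without pre2-2 siTet1 0.76 and 0.79, also not called). The nonclassical class I gene H2-T23 fell (-0.62), shares 18.8% of its words with H2-Q1 and lost its call without any 1 of the siTet1 and untransfected libraries (-0.76 to -0.50 over the libraries left out). Of 8 chemokine and cytokine genes 2 rose, Csf1, a growth factor for macrophages (78.9 and 17.4 CPM to 139 and 26.6 CPM; 0.77, 0.35 without pre2-2 untransfected), and Nfkbia, the inhibitor of NF-kappaB (0.54, 0.37). Neither was called without that library, nor without pre2-2 siTet1 (0.98 and 0.51), and Nfkbia also not without either control siRNA (0.54 and 0.53) or pre3 siTet1 (0.57). Markers of blood cells, another source of such transcripts, summed to 67.7 and 23.7 TPM untransfected and 47.9 and 28.9 TPM with siTet1, with Ptprc at 0.150 and 0 TPM untransfected. Their part in the result was not tested.

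Pluripotency and epithelial genes made up the contrasting group. In the fit of both lines together, 6 of the 7 genes that rose had under 33.3% of the change with control siRNA. The pluripotency network held 20 tested genes, of which 4 rose and 1 fell, with a median of 0.02. All 4 that rose had under 33.3% of the change with control siRNA in that fit. Dppa5a, an RNA-binding protein of pluripotent cells, stood at 11.7 and 41.5 CPM untransfected, 11.6 and 39.98 CPM with control siRNA and 37.00 and 123 CPM with siTet1. In each line the siTet1 library was about 3-fold the other libraries (log2 change 1.60, SE 0.19, adjusted p = 1e-05), the level was higher in pre3 throughout, and the gene belongs to the core. It shares 12.3% of its words with Pigp, and the summed counts of both were also higher with siTet1 (18.3 and 50.3 CPM untransfected, 42.2 and 129 CPM with siTet1). Dppa2, a chromatin factor that acts with Dppa4 in early embryos, stood at 7.38 and 3.59 CPM untransfected, 6.07 and 9.59 CPM with control siRNA and 15.9 and 18.6 CPM with siTet1 (log2 change 1.58, SE 0.39, adjusted p = 0.0136). Klf5, a factor of the naive pluripotent state, rose by 0.75 (adjusted p = 0.0302), and Tdgf1, the co-receptor of Nodal, by 0.39 (adjusted p = 0.0319) while it stood lower with control siRNA (-0.33, adjusted p = 0.218). The calls of Dppa2 and Klf5 ended without pre2-2 siTet1 (1.76 and 0.70), pre3 untransfected (1.01 and 0.50) or pre3 siTet1 (1.43 and 0.81). That of Tdgf1 ended without any of the pre2-2 libraries (0.18 untransfected, 0.39 control siRNA, 0.19 siTet1) or the pre3 control siRNA library (0.38).

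The reprogramming factors themselves were not called. Counts are per gene symbol, so RNA from any introduced copies could not be told from that of the cells' own genes. Pou5f1 stood at 1208 and 6619 CPM untransfected and 1146 and 6092 CPM with siTet1 (-0.10, adjusted p = 0.512), Sox2 at 496 and 397 CPM untransfected and 465 and 435 CPM with siTet1 (0.02, adjusted p = 0.962), Klf4 at 1639.6 and 1935 CPM untransfected and 1710.5 and 1904 CPM with siTet1 (0.02, adjusted p = 0.939) and Myc at 989.7 and 1864 CPM untransfected and 980.4 and 1738 CPM with siTet1 (-0.06, adjusted p = 0.781). Pou5f1 was over 5-fold higher in pre3 than in pre2-2 with every treatment. Nanog had too few counts to test, at 0 and 0.174 CPM untransfected, 3.61 and 0.736 CPM with control siRNA and 1.09 and 3.07 CPM with siTet1. Nr0b1, an orphan nuclear receptor of the network, fell, with 54.8 and 51.8 CPM untransfected and 15.5 and 43.1 CPM with siTet1 (log2 change -0.93, SE 0.25, adjusted p = 0.0237), of which 63.1% was present with control siRNA. Its call ended without pre2-2 untransfected (-0.57) or pre2-2 siTet1 (-0.28). Of 9 genes of LIF and Stat3 signalling, edgeR called 1, Junb (0.40, adjusted p = 0.0475), at a p near the threshold that of the fits with a library left out only the one without pre3 untransfected also passed. In the list limma called 3 higher and DESeq2 none, and edgeR without pre3 untransfected 6. It ranged from 0.36 to 0.45 over the libraries left out.

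Epithelial genes rose in 3 of 19 cases (15.8%, against 4.92% of all genes). Of these 19 genes DESeq2 called 1 higher and limma 3. Cdh1, E-cadherin, the adhesion protein that holds epithelial and pluripotent colonies together, stood at 135 and 56.9 CPM untransfected, 129 and 52.8 CPM with control siRNA and 236 and 127 CPM with siTet1. The siTet1 library was the highest of its line in both (log2 change 0.96, SE 0.14, adjusted p = 9.51e-05), none of the change was present with control siRNA (-0.08), and Cdh1 belongs to the core. Cdh3, P-cadherin, stood at 3.497 and 0.513 CPM untransfected, 7.08 and 4.26 CPM with control siRNA and 15.9 and 10.6 CPM with siTet1 (log2 change 2.65, SE 0.52, adjusted p = 0.00196), also in the core. For Cdh3 53.7% of the change was present with control siRNA. Perp, a desmosomal protein and a p53 target, rose by 0.35 (adjusted p = 0.0362, 617 and 347 CPM untransfected and 799.97 and 436 CPM with siTet1). Its call ended without either control siRNA library or either siTet1 library, at 0.32 to 0.38. Epcam was not called (0.35, adjusted p = 0.247; 86.2 and 37.96 CPM untransfected and 104 and 52.7 CPM with siTet1), and the median of the list was 0.10. Summed epithelial markers were 328 and 288 TPM untransfected, 355 and 221 TPM with control siRNA and 487 and 329 TPM with siTet1.

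Genes of the extracellular matrix rose together, with a similar median change with control siRNA. Of 26 tested genes of collagens and fibroblast matrix, edgeR called 20 higher (76.9%, against 4.92% of all genes) and none lower, DESeq2 6 higher and limma 21 higher. Their median change was 0.71 with siTet1, 0.65 with control siRNA and 0.03 between the siRNAs. In 12 of the 20 called by edgeR at least 66.7% was present with control siRNA. In 2, the collagen VI genes Col6a1 (0.53) and Col6a2 (0.55), named after their values were seen, under 33.3% was. Without the pre2-2 untransfected library 6 were called and the median was 0.29. The fibroblast marker sum given above moved with these genes, and all 12 of its markers are in the matrix and mesenchymal lists, so it is no separate measure.

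Col1a1, the main chain of type I collagen, stood at 752 and 367 CPM untransfected, 1568 and 463 CPM with siTet1 and 2054 and 480.1 CPM with control siRNA. In both lines the siTet1 library lay between the others (log2 change 0.70, SE 0.14, adjusted p = 0.00326), and 135% of the change was present with control siRNA. Lox, which cross-links collagen, stood at 59.8 and 23.6 CPM untransfected, 168 and 26.6 CPM with siTet1 and 227 and 33.6 CPM with control siRNA (log2 change 1.11, SE 0.22, adjusted p = 0.00219; 136%). Both rose mostly in pre2-2, and their calls ended without its untransfected library (0.24 and 0.13), that of Lox also without pre2-2 siTet1 (0.76). Members of the core were Col5a1, a chain of fibril collagen (216 and 98.6 CPM to 517 and 156 CPM; 1.00), Sparc, a collagen-binding glycoprotein (410.3 and 175 CPM to 958 and 243 CPM; 0.88), and Fbn1, fibrillin (1.08). Without pre2-2 untransfected they stood at 0.64, 0.45 and 0.64. Pdgfra, the receptor that marks mesenchymal progenitors, belongs there too and changed more, from 10.7 and 2.06 CPM to 36.1 and 12.8 CPM (log2 change 1.92, SE 0.32, adjusted p = 0.00048; 62.6%). The calls of Col6a1 and Col6a2 ended without pre2-2 untransfected (0.22 and 0.56) or pre2-2 siTet1 (0.28 and 0.48), and that of Col6a2 also without pre3 siTet1 (0.59). In pre2-2 alone Col6a1 differed by 0.306 with control siRNA and 0.841 with siTet1, and in pre3 by -0.151 and 0.16 (log2 CPM).

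Col18a1 differed from the fibril collagens. This basement membrane collagen, which was in no list, stood at 265 and 335 CPM untransfected, 299 and 283 CPM with control siRNA and 838 and 619 CPM with siTet1. Both siTet1 libraries lay above the other 4 (log2 change 1.28, SE 0.13, adjusted p = 7.52e-07), and control siRNA left it at -0.05. Spp1, osteopontin, a secreted adhesion protein of the mesenchymal transition list, showed the same order with 1037 and 463 CPM untransfected, 871 and 449.8 CPM with control siRNA and 2549 and 1089 CPM with siTet1 (log2 change 1.27, SE 0.10, adjusted p = 4.3e-09). Tnc, tenascin C, stood at 630.4 and 149 CPM untransfected, 1072 and 187 CPM with control siRNA and 1869.7 and 326 CPM with siTet1 (log2 change 1.37, SE 0.11, adjusted p = 1.34e-08), with 41.8% present with control siRNA. All 3 belong to the core.

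The mesenchymal transition list as a whole had 13 of 23 tested genes higher (56.5%) and none lower, with a median of 0.85 and, without pre2-2 untransfected, 4 higher and 1 lower. Of the 13, 6 had at least 66.7% of their change with control siRNA. In this list DESeq2 called 2 higher and limma 14. Thbs1, thrombospondin, was among the 6 with at least 66.7%, with 373 and 80.6 CPM untransfected, 891 and 112 CPM with siTet1 and 1499 and 173 CPM with control siRNA (log2 change 0.96, SE 0.15, adjusted p = 0.000202). Its call ended without pre2-2 untransfected (0.43). Of 3 genes chosen after their values were seen, Fn1, fibronectin (2414 and 3219.6 CPM to 6239 and 3557 CPM; 0.74, 0.35 without pre2-2 siTet1, not called), and Tgfbr2, a receptor of TGF-beta (0.52), had under 33.3% with control siRNA in the fit of both lines. In pre2-2 alone Fn1 differed by 0.719 with control siRNA and 1.37 with siTet1, and in pre3 by -0.165 and 0.144 (log2 CPM). Tgfbr2 lost its call without pre2-2 untransfected (0.34), pre2-2 siTet1 (0.28) or pre3 control siRNA (0.50). Twist1, the last of them and a transcription factor that drives the transition, rose (5.72 and 2.56 CPM to 21.6 and 5.85 CPM; 1.69, with no call at 1.24 without pre2-2 untransfected and 1.39 without pre2-2 siTet1), and Snai1, another such factor, was not called (0.22, adjusted p = 0.769; 13.99 and 10.8 CPM untransfected and 18.7 and 10.1 CPM with siTet1). The filament gene Vim rose by 0.47 (adjusted p = 0.00312), with no call without pre2-2 siTet1 (0.37). E-cadherin and the mesenchymal genes thus stood higher in the same libraries.

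Genes of the contractile cytoskeleton followed the matrix. Of 16 tested, 9 rose (56.2%) and none fell, 7 of the 9 with at least 66.7% of the change with control siRNA, and 1 was called without the pre2-2 untransfected library, where the median was 0.16 instead of 0.71. With all libraries DESeq2 called 2 of the 16 higher and limma 11. Actn1, which cross-links actin, stood at 165 and 75.7 CPM untransfected, 408 and 106 CPM with siTet1 and 355 and 97.4 CPM with control siRNA (log2 change 0.97, SE 0.16, adjusted p = 0.000292). Zyx, of focal adhesions (0.86), and Cnn2, a calponin (0.80), moved alike. Mical2, an actin-oxidising enzyme in no list, did so too (54.4 and 13.3 CPM untransfected, 158 and 32.98 CPM with siTet1 and 165 and 23.5 CPM with control siRNA; 1.50; 94.5%) and belongs to the core. Without pre2-2 untransfected Actn1 (0.51), Zyx (0.29) and Cnn2 (0.47) were not called, nor without pre2-2 siTet1 (0.71, 0.56 and 0.70). Acta1, skeletal muscle actin, stood at 3.72 and 0 CPM untransfected, 38.8 and 2.72 CPM with siTet1 and 7.83 and 2.73 CPM with control siRNA (log2 change 3.32, SE 0.52, adjusted p = 0.000187), high in 1 library only, and its call ended without that pre2-2 siTet1 library (1.87). The muscle regulators Myod1 and Myog had no count in any library.

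**Figure D4:**
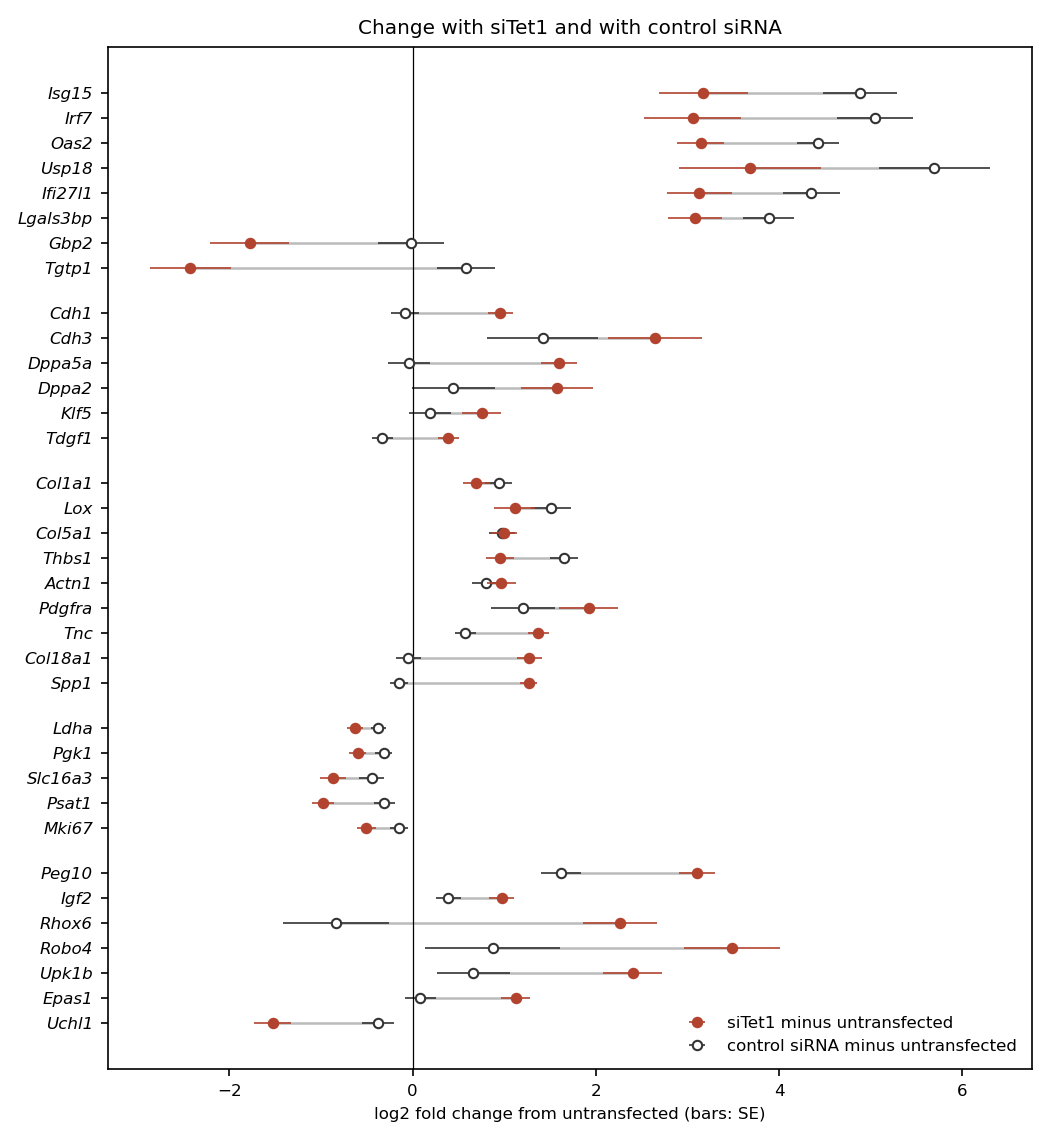
Log2 fold change from untransfected cells (horizontal axis, bars are SE) with siTet1 (filled) and with control siRNA (open) for 35 named genes, in blocks from top to bottom of interferon, pluripotency and epithelial, matrix and contractile, metabolism and growth, and other genes. Open points lie beyond the filled ones for Isg15 and Oas2, near them for Col5a1 and Actn1, and near 0 for Cdh1, Dppa5a, Col18a1 and Spp1.

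Glycolytic genes fell, with similar medians in both lines. Of 24 tested genes of glycolysis and hypoxia 11 fell (45.8%, against 1.63% of all genes) and none rose, with a median of -0.27, at -0.22 in pre2-2 and -0.33 in pre3. The count was also 11 without the pre2-2 untransfected library and 10 without pre2-2 siTet1, and 5 without pre3 siTet1. With other libraries left out some members were called higher, 4 without pre3 untransfected and 2 without pre3 siTet1. Ldha, lactate dehydrogenase, stood at 1494 and 2548 CPM untransfected, 1159 and 1958 CPM with control siRNA and 959.7 and 1659 CPM with siTet1. The order of treatments was the same in both lines, while the lines differed in level (log2 change -0.63, SE 0.08, adjusted p = 3.04e-05; 59.3% present with control siRNA). Pgk1, phosphoglycerate kinase, stood at 894 and 1759.5 CPM untransfected, 752 and 1356 CPM with control siRNA and 653 and 1051 CPM with siTet1 (log2 change -0.60, SE 0.10, adjusted p = 0.000239), and Slc16a3, the lactate exporter, at 83.5 and 252 CPM untransfected, 56.7 and 193 CPM with control siRNA and 50.1 and 129.7 CPM with siTet1 (log2 change -0.87, SE 0.14, adjusted p = 0.000377). Eno1, enolase, fell by 0.57 (adjusted p = 0.000183) and shares 66.3% of its words with Eno1b. These 4 belong to the core. Gapdh fell by 0.36 (adjusted p = 0.00288), shares 24.9% of its words with Gm5523 and lost its call without either siTet1 library (-0.35 and -0.37). In all 11 at least 33.3% of the change was present with control siRNA. With all libraries DESeq2 called 5 genes of this list lower and limma 11. Slc2a1, the glucose transporter, was not called (0.30, adjusted p = 0.13), at 547 and 886 CPM untransfected and 839 and 875 CPM with siTet1.

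Serine and asparagine synthesis genes, targets of the amino acid response factor Atf4, fell in 6 of 22 cases (27.3%, against 1.63% of all genes). Of these 22 genes DESeq2 called 2 lower and limma 6. Psat1, an enzyme of serine synthesis, stood at 304 and 397 CPM untransfected, 225 and 349 CPM with control siRNA and 145 and 216 CPM with siTet1. Both siTet1 libraries lay below the other 4 (log2 change -0.97, SE 0.12, adjusted p = 1.43e-05; 31.7% present with control siRNA), and the gene belongs to the core. Shmt2, which makes one-carbon units from serine in mitochondria, fell by 0.63 (adjusted p = 0.00137, -0.54 without pre2-2 siTet1, not called). Asns, asparagine synthetase, fell by 0.54 (adjusted p = 0.0131), of which 85.2% was present with control siRNA, and Slc7a3, a transporter of basic amino acids, by 0.52. Asns was not called without pre2-2 siTet1 (-0.66) or pre3 siTet1 (-0.41), nor Slc7a3 without these (-0.62 and -0.45) or pre2-2 untransfected (-0.39). Of 15 genes of the unfolded protein response none was called by edgeR, DESeq2 or limma, and 2 had an unadjusted edgeR p under 0.05.

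Genes of growth were lower by small amounts. Of 25 mitosis genes 8 fell (32.0%, against 1.63% of all genes), none rose and all 25 had a negative change, with a median of -0.37. Control siRNA gave a median of -0.16, and without pre2-2 untransfected 4 were called and the median was -0.23, and without pre2-2 siTet1 none was called. With all libraries DESeq2 called none of the 25 mitosis genes and limma 9 lower. Mki67, the proliferation marker, stood at 712 and 903 CPM untransfected, 605 and 869 CPM with control siRNA and 463 and 691 CPM with siTet1 (log2 change -0.50, SE 0.10, adjusted p = 0.00225). Nusap1, a spindle protein (-0.62), Top2a, topoisomerase II (-0.44), and Aurkb, a mitotic kinase (-0.58), also fell. Their calls, and that of Mki67, ended without pre2-2 siTet1 (-0.60, -0.38, -0.44 and -0.43), and Aurkb was not called without pre2-2 untransfected (-0.42). Of 25 DNA replication genes none was called with edgeR or DESeq2 and 2 were lower with limma, and all 25 had a negative change (median -0.23), 11 of them with an unadjusted edgeR p under 0.05. Of 30 cytosolic ribosomal protein genes 5 fell (16.7%, against 1.63% of all genes) and all 30 were negative, with a median of -0.21 with siTet1 and -0.20 with control siRNA. Rpl11 (889.9 and 1049.9 CPM to 601 and 853 CPM; -0.43), Rpl4 (-0.32), Rpl6 (-0.31) and Rpl7 (-0.33) were among them, and none of the 30 was called without pre2-2 siTet1 and 1 without either control siRNA library. Without pre2-2 siTet1 Rpl11 was at -0.28, Rpl4 at -0.28, Rpl6 at -0.20 and Rpl7 at -0.29. The calls of Rpl4, Rpl6 and Rpl7 also ended without pre3 siTet1 (-0.36, -0.43 and -0.36), and that of Rpl6 without pre2-2 untransfected (-0.23). With all libraries DESeq2 called none of the 30 ribosomal genes and limma 7 lower. Of 19 p53 targets and cell-cycle inhibitors 2 rose (10.5%, against 4.92% of all genes), Perp and Cdkn2b, an inhibitor of cyclin D kinases (20.6 and 9.75 CPM to 42.8 and 18.6 CPM; 1.01). Cdkn2b lost its call without pre2-2 untransfected (0.94) or pre2-2 siTet1 (0.97). Respiratory chain genes (1 of 25 lower, 4.0%, Atp5b, -0.28) and sterol and fatty acid synthesis genes (1 of 21 lower, 4.76%, Scd2, -0.30) had 1 call each, where 1.63% of all genes were lower. Both of these calls ended without either control siRNA or either siTet1 library, and that of Scd2 also without pre2-2 untransfected. Over the libraries left out Atp5b ranged from -0.31 to -0.25 and Scd2 from -0.39 to -0.23.

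**Figure D5:**
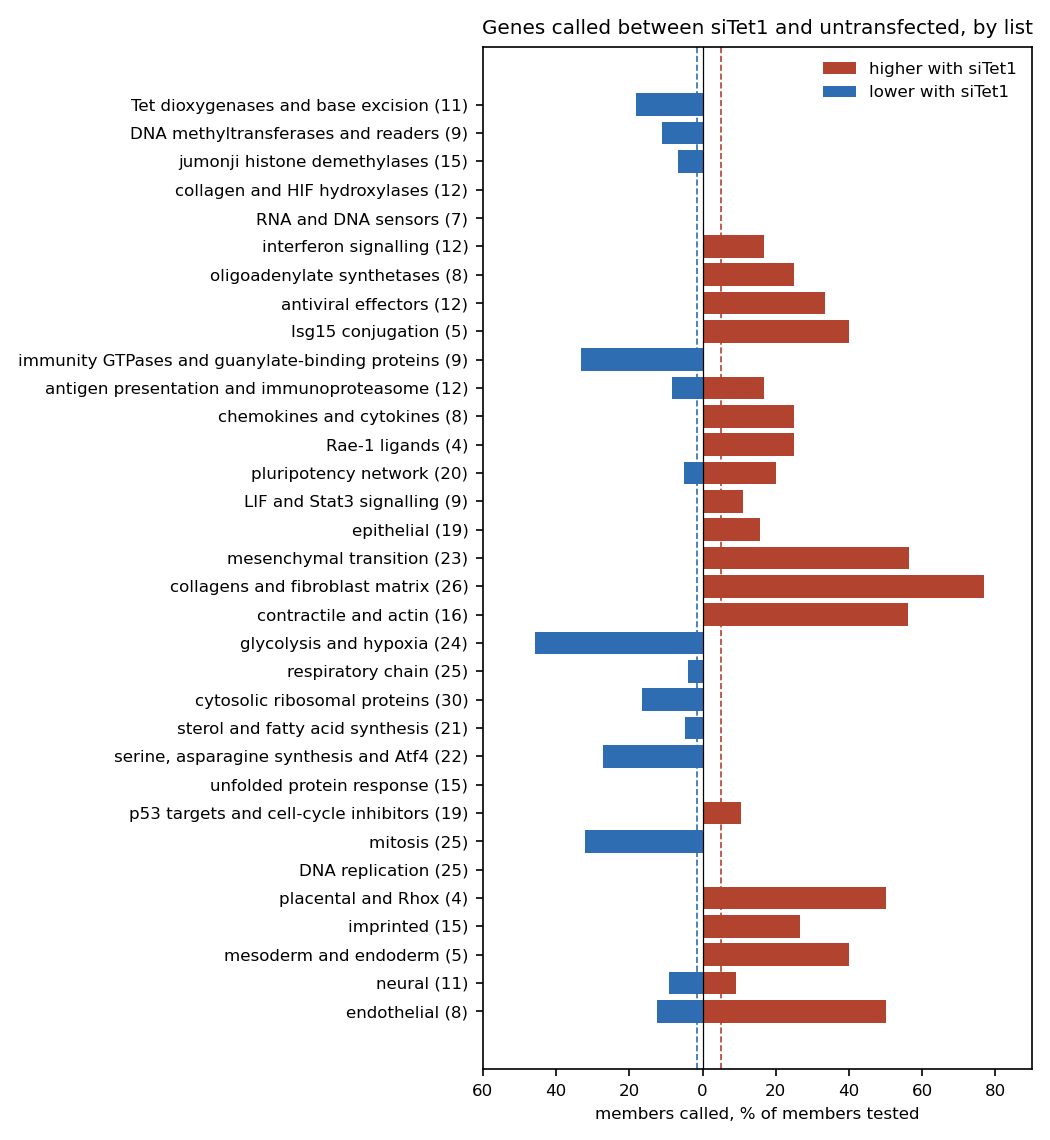
Percentage of the tested members (number in brackets) of each gene list with at least 4 of them called higher, to the right, or lower, to the left, between siTet1 and untransfected cells; dashed lines mark the shares over all genes, 4.92 and 1.63%. Matrix (76.9%), mesenchymal (56.5%) and contractile genes (56.2%) lie far to the right and glycolysis (45.8%), GTPases (33.3%) and mitosis (32.0%) to the left, while lists with few tested members give coarse percentages.

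Imprinted, placental and germline genes held some of the most changed members. Peg10, an imprinted gene derived from a retrotransposon and needed for the placenta, stood at 50.5 and 2.05 CPM untransfected, 144 and 11.2 CPM with control siRNA and 451 and 17.6 CPM with siTet1. The order of treatments was the same in both lines although pre2-2 was more than 10-fold higher (log2 change 3.11, SE 0.20, adjusted p = 1.69e-10; 52.1% present with control siRNA). Igf2, the imprinted growth factor, stood at 189.6 and 96.4 CPM untransfected, 286 and 104 CPM with control siRNA and 424 and 159.6 CPM with siTet1 (log2 change 0.97, SE 0.13, adjusted p = 4.5e-05). Rhox6, a homeobox gene of placenta and germ cells on the X chromosome, stood at 0.389 and 11.3 CPM untransfected, 0 and 6.397 CPM with control siRNA and 5.47 and 47.2 CPM with siTet1 (log2 change 2.27, SE 0.40, adjusted p = 0.000875), with no part of the change in control siRNA, and shares 16.5% of its words with Rhox9. These 3 belong to the core. Dlk1, a Notch ligand homologue (8.16 and 1.54 CPM to 22.5 and 4.79 CPM; 1.48; at least 66.7% with control siRNA), and Igf2r, the receptor that clears Igf2 (0.60), also rose. In all, 4 of 15 imprinted genes rose (26.7%, against 4.92% of all genes) and none fell. Dlk1 and Igf2r were not called without pre2-2 untransfected (1.55 and 0.38) or pre2-2 siTet1 (1.58 and 0.45). Tex19.1, a germline gene silenced by DNA methylation in body cells, fell from 13.2 and 12.3 CPM to 2.81 and 3.72 CPM (log2 change -1.96, SE 0.45, adjusted p = 0.0075), with no call without pre2-2 untransfected (-1.82) or pre2-2 siTet1 (-1.75).

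Raet1c, which marks stressed cells for natural killer cells through NKG2D, had no count in the 4 libraries without siTet1 and stood at 18.7 and 5.79 CPM with it. With the untransfected group set at 3 counts, it was at least 19.4-fold higher. The counts of the related genes Raet1a to Raet1e summed to 56.4 and 34.9 CPM untransfected, 42.7 and 35.2 CPM with control siRNA and 62.9 and 57.5 CPM with siTet1, and Raet1e alone to 36.3 and 22.3, 26.9 and 17.7 and 22.6 and 32.7 CPM. Assignment of reads among these copies is uncertain, and without pre2-2 siTet1 Raet1c was too low to be tested. The family sum moved far less than Raet1c in pre2-2.

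The endothelial list had 4 of 8 tested genes higher (50.0%, against 4.92% of all genes) and 1 lower (12.5%, against 1.63%). Its median change was 1.097, and 0.628 without pre2-2 untransfected. In this list DESeq2 called 1 higher and none lower, and limma 3 higher and 1 lower. Robo4, a receptor of vessel stability, stood at 1.55 and 1.54 CPM untransfected, 4.55 and 1.07 CPM with control siRNA and 22.01 and 12.8 CPM with siTet1. Both siTet1 libraries lay above the other 4 (log2 change 3.49, SE 0.52, adjusted p = 0.000116), and Robo4 belongs to the core. Esam, an adhesion molecule (0.389 and 12.8 CPM to 6.09 and 30.9 CPM; 1.62), Kdr (6.22 and 0.513 CPM to 18.7 and 2.13 CPM; 1.62) and Flt1 (6.605 and 7.18 CPM to 20.6 and 15.4 CPM; 1.40), both receptors of vascular growth factor, rose, and the adhesion gene Pecam1 fell (26.6 and 7.69 CPM to 11.2 and 3.72 CPM; -1.18). A sum of 6 endothelial markers did not rise, at 53.1 and 14.9 TPM untransfected and 44.8 and 12.1 TPM with siTet1. That sum was mostly Tek (30.5 and 8.998 TPM untransfected, 23.03 and 8.48 TPM with siTet1) and Pecam1 (16.6 and 4.499 TPM untransfected). It therefore says little of the other members. The defining gene Cdh5 was below 1 TPM in every library. Esam was not called without pre2-2 siTet1 (1.37), and Flt1, Kdr and Pecam1 were called neither without that library (1.43, 1.78 and -1.11) nor without pre2-2 untransfected (0.98, 1.91 and -1.001). Kdr and Pecam1 also lost their calls without pre2-2 control siRNA (1.62 and -1.18) or pre3 siTet1 (1.59 and -1.21), and Kdr without pre3 control siRNA (1.59). Evx1, a homeobox gene of the primitive streak, rose from 6.605 and 2.56 CPM to 15.9 and 10.6 CPM (log2 change 1.51, SE 0.43, adjusted p = 0.0307), not present with control siRNA (-0.16), and lost its call without any 1 of the siTet1 and untransfected libraries (1.25 to 2.02 over the libraries left out). Among 11 neural genes 1 rose (9.09%), Nes, nestin (0.75), and 1 fell (9.09%), Stmn2, a microtubule regulator (-0.38), against 4.92 and 1.63% of all genes. Both were without a call when pre2-2 untransfected was left out (0.41 and -0.29) or pre2-2 siTet1 (0.53 and -0.33). Stmn2 also lost it without either control siRNA (-0.38 and -0.39) or pre3 siTet1 (-0.43).

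In each list of DNA demethylation, DNA methylation and histone demethylation 1 or 2 genes were called, all lower. Over all genes 1.63% were called lower. In the list of Tet dioxygenases and base excision repair, 2 of 11 fell (18.2%), Tet1 and Idh2, a mitochondrial isocitrate dehydrogenase that supplies the cosubstrate of these enzymes (87.7 and 256 CPM untransfected, 77.4 and 179.6 CPM with control siRNA and 65.6 and 151 CPM with siTet1; log2 change -0.62, SE 0.14, adjusted p = 0.00683). Of 9 DNA methyltransferases and readers 1 fell (11.1%), Uhrf1, which guides maintenance methylation to replicated DNA (514 and 529 CPM to 359 and 456 CPM; log2 change -0.37, SE 0.11, adjusted p = 0.0413). Dnmt1, the maintenance enzyme, was not called (-0.14, adjusted p = 0.515; 545 and 610.2 CPM untransfected and 462 and 595 CPM with siTet1). Of 15 jumonji histone demethylases, which use the same cofactors as Tet1, 1 fell (6.67%), Jhdm1d (100.1 and 137 CPM to 61.3 and 91.1 CPM; log2 change -0.65, SE 0.15, adjusted p = 0.00789). None of 12 collagen and HIF hydroxylases, also vitamin C dependent, was called by edgeR, DESeq2 or limma, and 1 had an unadjusted edgeR p under 0.05. The call of Idh2 ended without pre3 untransfected (-0.44) or pre3 siTet1 (-0.52), and that of Jhdm1d without pre2-2 untransfected (-0.51), pre2-2 siTet1 (-0.69) or pre3 siTet1 (-0.61). Uhrf1 remained called only without pre3 untransfected (-0.50) and ranged from -0.50 to -0.24.

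Among genes chosen by size or p alone, those with under 33.3% of the change with control siRNA included Prex2, an exchange factor for Rac, at 20.2 and 14.4 CPM untransfected, 30.4 and 19.2 CPM with control siRNA and 84.4 and 40.1 CPM with siTet1 (log2 change 1.83, SE 0.22, adjusted p = 7.97e-06). Upk1b, a tetraspanin of the urothelium, stood at 8.94 and 3.08 CPM untransfected, 12.7 and 6.93 CPM with control siRNA and 34.5 and 30.3 CPM with siTet1 (log2 change 2.40, SE 0.32, adjusted p = 3.04e-05). Epas1, the hypoxia factor HIF-2 alpha, stood at 120.4 and 173 CPM untransfected, 148 and 161 CPM with control siRNA and 374 and 259.9 CPM with siTet1 (log2 change 1.12, SE 0.16, adjusted p = 7.36e-05). For all 3 both siTet1 libraries lay above the other 4, all 3 belong to the core, and glycolytic genes, which respond to the related factor Hif1a, fell in the same libraries. Uchl1, a deubiquitinase of neurons and germ cells, fell from 105 and 29.7 CPM to 35.1 and 11.2 CPM (log2 change -1.53, SE 0.20, adjusted p = 2.4e-05; 80.97 and 22.9 CPM with control siRNA), also in the core. Mall, a membrane proteolipid, rose from 1.94 and 0.513 CPM to 27.2 and 5.85 CPM (log2 change 3.66, SE 0.55, adjusted p = 0.000118; 44.7% present with control siRNA; 2.86 without pre2-2 siTet1, not called). Gpr37, a receptor of the nervous system, had 3 counts in untransfected cells and was higher by 11.03-fold (95% exact counting interval 3.42 to 56.6).

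Several of the largest falls were in genes of low level. Kpna7, an importin of the early embryo, stood at 14.8 and 7.69 CPM untransfected, 8.097 and 9.06 CPM with control siRNA and 2.81 and 1.596 CPM with siTet1 (log2 change -2.32, SE 0.52, adjusted p = 0.00654). Npy2r, a neuropeptide receptor, stood at 23.3 and 7.18 CPM untransfected, 12.7 and 3.198 CPM with control siRNA and 2.34 and 2.13 CPM with siTet1 (log2 change -2.74, SE 0.50, adjusted p = 0.00104), and Tph1, which makes the precursor of serotonin, at 5.83 and 6.15 CPM untransfected, 13.2 and 5.86 CPM with control siRNA and 0.468 and 1.596 CPM with siTet1 (log2 change -2.50, SE 0.75, adjusted p = 0.0427). In each of these 3 both siTet1 libraries lay below both untransfected ones. The transcripts 2010001M09Rik (1.94 and 36.4 CPM to 0 and 6.91 CPM; -2.45) and E130309F12Rik fell as well, the latter with 2 counts with siTet1 against 48 untransfected and lower by 21.04-fold (95% exact counting interval 5.51 to 179). Amd1, a polyamine synthesis enzyme, was called lower (233 and 36.3 CPM untransfected, 0 and 0.123 CPM with control siRNA, 38.4 and 0.0585 CPM with siTet1), but it shares 86.1% of its words with Amd2, and the summed counts of both were 233 and 235 CPM untransfected, 202 and 247 CPM with control siRNA and 199.99 and 254 CPM with siTet1. The call is therefore uncertain, although Amd1 is 1 of the 13 lower genes of the core. Without pre2-2 untransfected Gpr37 (1.65), Kpna7 (-1.79), Npy2r (-2.55) and E130309F12Rik (-2.43) were not called, nor without pre2-2 siTet1 (2.77, -2.53, -1.66 and -5.21). Tph1 was not called without pre2-2 control siRNA (-2.53), pre2-2 siTet1 (-1.53) or pre3 untransfected (-2.16), and 2010001M09Rik not without pre3 untransfected (-1.74) or pre3 siTet1 (-5.51).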

How the data were processed

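Total RNA was extracted with Trizol and libraries were made with an Illumina TruSeq kit, per the labels. The authors deposited an expected count per gene symbol for each library, made with RSEM 1.1.21 on mm9, per the submitters' processing notes; aligner and read length are not given in the sources used here. The fraction of transcripts that the authors deposited beside it was multiplied to TPM. A whole-series table with 6 columns of values was not used.

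Expected counts were rounded and scaled by TMM (factors 0.982 to 1.01) in edgeR 4.0.16 under R 4.3.3. Genes passing filterByExpr with a minimum count of 10 (11048 of 20325) entered a quasi-likelihood fit of treatment and cell line over all 6 libraries, so that the groups share 1 estimate of spread, with 2 residual degrees of freedom. The fit adds 23.2 prior degrees of freedom from other genes. The spread behind each p is therefore largely borrowed across genes and is no measure of replicate cultures. P-values are two-sided and Benjamini-Hochberg adjusted, with all tested genes as 1 family. Libraries are paired by the cell line in the labels. Across genes, libraries of a line correlated at 0.950 to 0.971 and libraries of different lines at 0.874 to 0.932, on log2(CPM + 0.5). An exact permutation test of 2 against 2 cannot go below p = 0.333, so none was used. The code was tested on simulated data. DESeq2 1.42.0, limma 3.58.1, RLE and total-count scaling, no filter, no replicate block, 4 libraries alone and leaving out each library were alternatives.

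The comparison, the members and 36 gene lists (605 genes, 599 in the files) were chosen with earlier results of these data known. Named genes are the 12 highest and 8 lowest called changes with at least 5 CPM, up to 4 called genes of each list by adjusted p, of the called changes of at least 2-fold the 8 with under 33.3% and the 5 with at least 66.7% present with control siRNA (by adjusted p), and a set of marker and pathway genes, of which 12 uncalled ones are not described. Some genes that the rule selects are not reported here. Genes named outside this rule are said in the text to have been chosen after their values were seen. Counting intervals (95%, exact) and the floor of 3 counts cover counting error only. Shared words are the 50-base words of a gene's transcripts that occur in another gene, in GENCODE transcripts linked to RefSeq.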

Additional observations from a re-analysis of the deposited data

Results flagged for a closer look

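In Ifi44 and Tgtp1 the lines moved opposite ways between siTet1 and untransfected cells. Ifi44 differed by 6.12 (log2 CPM) in pre2-2 and by -0.685 in pre3, and Tgtp1 by -2.58 in pre2-2 and by 1.64 in pre3. The difference between the lines was not tested, since each line has 1 library per treatment, and the pre3 values of both genes in these groups amount to 2 counts or fewer.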

How the results depend on the processing

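Leaving out 1 library at a time gave 172 to 1900 called genes, 132 to 1114 higher and 40 to 786 lower. The number with under 33.3% of the change with control siRNA ranged from 58 to 323, with 33.3 to 66.7% from 71 to 740.0, and with at least 66.7% from 43 to 837. Tet1 ranged from -0.71 to -0.37. The sign changed for Ddx58 (-0.0091 to 0.349), Ifi44 (-0.59 to 7.76), Klf4 (-0.0291 to 0.062), Snai1 (-0.243 to 0.481), Sox2 (-0.103 to 0.129) and Tgtp1 (-2.56 to 2.55). DESeq2 called 85 genes, 72 higher and 13 lower, of which 20 had under 33.3%, 39 had 33.3 to 66.7% and 26 at least 66.7% with control siRNA; it gave Tet1 -0.54 (adjusted p = 0.187). Without the replicate block, that is without the cell line as a term, 0 genes were called in either direction by edgeR (353 had an unadjusted p under 0.05, against 2157 by edgeR and 776 by DESeq2 with the block), and Tet1 stood at -0.54 (adjusted p = 0.991). With the 4 libraries alone and the replicate block 111 were lower. With no filter on low counts 271 were lower, Klf4 was at -0.000769 and Sox2 at -0.00502. A minimum change of 2-fold left 278 genes. Classes computed from pre3 alone put 375 genes under 33.3%, 180 at 33.3 to 66.7% and 169 at 66.7% or more. Of 123 named genes 122 held their direction and call with RLE scaling, 119 with limma and 52 with DESeq2. The cause was not tested. With 1 library per line and treatment, spread between cultures was not measured, and 3 counts equal 1.16 to 1.61 CPM, so changes of genes near that level are loosely known.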

Other observations

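Of the 76 genes called with each library left out in turn, 17 of those higher and 3 of those lower had under 33.3% of the change with control siRNA. Several lie outside the lists and are named here after their values were seen, so their values are a description. Sfn, the epithelial 14-3-3 protein stratifin, stood at 337 and 92.3 CPM untransfected, 423 and 90.9 CPM with control siRNA and 666 and 164 CPM with siTet1 (log2 change 0.92, SE 0.12, adjusted p = 3.04e-05). In each line its siTet1 library was the highest, and the pre2-2 levels were above those of pre3 throughout. Gpa33, a surface antigen of intestinal epithelium, stood at 56.7 and 33.3 CPM untransfected, 43.5 and 51.2 CPM with control siRNA and 91.7 and 78.7 CPM with siTet1 (log2 change 0.91, SE 0.18, adjusted p = 0.00276). Cd97, an adhesion receptor, stood at 36.99 and 27.7 CPM untransfected, 48.1 and 27.2 CPM with control siRNA and 87.3 and 53.7 CPM with siTet1 (log2 change 1.12, SE 0.18, adjusted p = 0.000337). Both siTet1 libraries lay above the other 4 for Gpa33 and for Cd97.

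Pitpnc1, a phosphatidylinositol transfer protein, rose from 40.02 and 32.3 CPM to 94.1 and 66.5 CPM (1.15; 43.5 and 33.6 CPM with control siRNA). Zmiz1, a coactivator of transcription, rose from 65.3 and 65.7 CPM to 108 and 124 CPM (0.81; 66.3 and 85.3 CPM with control siRNA). Abp1, a diamine oxidase, rose from 3.89 and 38.98 CPM to 16.9 and 94.1 CPM (1.44), with control siRNA at 9.11 and 23.5 CPM, above untransfected in pre2-2 and below it in pre3. Nccrp1 (0.99) and the erythroid spectrin gene Spna1 (1.11) rose, and Reep1, which shapes the endoplasmic reticulum, fell from 63.3 and 132 CPM to 35.6 and 69.1 CPM (log2 change -0.89, SE 0.16, adjusted p = 0.00086), with both lines below each of their other libraries.

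Between 33.3 and 66.7% of the change was present with control siRNA for 28 of the higher and 9 of the lower genes of the 76, of which 4 higher ones outside the lists are described here. Crispld2, a secreted matrix protein, stood at 7.46 and 2.05 CPM untransfected, 18.2 and 6.397 CPM with control siRNA and 33.3 and 50.00 CPM with siTet1 (log2 change 3.05, SE 0.39, adjusted p = 2.32e-05). The step from control siRNA to siTet1 was larger in pre3 than in pre2-2. Sparcl1, a relative of Sparc, rose by 2.69 (1.55 and 3.08 CPM to 14.99 and 14.4 CPM), Alox15, a lipoxygenase, by 1.96 (2.33 and 10.8 CPM to 15.9 and 32.4 CPM) and Serpinb9b, a protease inhibitor, by 2.02 (15.4 and 22.1 CPM to 110.02 and 44.1 CPM).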
